A study of Homo sapiens with 117 samples.

Results

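The CDKN2A and CDKN2B tumour suppressor locus was examined in 24 CTCF peak lists. Its members were all peaks with a summit in a 300-kb window of human chromosome 9 (GRCh38) that starts in MTAP and holds the whole of CDKN2A, CDKN2B and CDKN2B-AS1. Membership was set by position alone, and this was done with earlier results of these data known. There were 208 such peaks, out of 6621481 peaks in the 24 lists. Joining summits within 100 bp across the lists gave 113 sites, of which 94 were seen in 1 list, 13 in 2 or 3 lists, 2 in 4 to 11 lists and 4 in at least 12 lists. The 4 sites in at least 12 lists are called recurrent below, and 2 of them were found in all 24 lists.

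The lists came from CTCF ChIP-seq of DIvA cells, an osteosarcoma (U2OS) line in which the restriction enzyme AsiSI is fused to an estrogen receptor domain and cuts the genome when 4-OHT is added. Cells received 300 nM 4-OHT for 4 h (+DSB) or none (−DSB), and carried IDH1 WT or IDH1 R132H that had been introduced with lentivirus, so the mutant acts beside the IDH1 of the line itself. Some of the IDH1 R132H cells were given, by overexpression, either the active catalytic domain of the DNA demethylase TET1 (TET1 CD) or a catalytically dead version (TET1 dCD). The deposited labels give 3 lists for IDH1 WT −DSB and 4 for IDH1 WT +DSB, 4 lists for each of the 2 IDH1 R132H conditions, 2 each for TET1 CD −DSB and +DSB, 3 for TET1 dCD −DSB and 2 for TET1 dCD +DSB. Replicate 1 of IDH1 WT −DSB was not analysed here.

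The lists differed in size and library, and some contradicted their labels. They held 111558 to 503609 peaks each, with estimated depths of 22.8 to 84.7 M reads and fragments of 118 to 194 bp. The run name stored with the peaks disagreed with the label in 9 lists. The 3 lists labelled IDH1 WT −DSB carry an R132H −DSB run name, the 4 lists labelled IDH1 R132H −DSB carry a WT −DSB run name, and replicates 1 and 2 of TET1 dCD −DSB carry a TET1 CD +DSB run name. Groups below follow the labels, and values by run name are given beside each result that changes. In 6 pairs of lists, read numbers at common peaks varied within counting noise, and each of these pairs was counted as 1 sample, which left 18 samples. In a condition with only 2 lists, a pair was counted so only where it varied less than counting noise would give. Replicates 1 and 2 of TET1 CD −DSB also varied within counting noise but not below it, and stayed 2 samples. Counting them as 1, an alternative chosen after seeing the data, changed no call at the locus.

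CDKN2A and CDKN2B lie next to each other and brake the cell cycle. From CDKN2A, alternative first exons give p16INK4a, an inhibitor of CDK4 and CDK6 that keeps RB active, and p14ARF, which holds back the ubiquitin ligase MDM2; CDKN2B encodes p15INK4b, another inhibitor of CDK4 and CDK6. CDKN2B-AS1, also called ANRIL, is a long noncoding RNA read from the opposite strand and known for its association with Polycomb silencing of the locus. CTCF is a zinc-finger protein that binds a long DNA motif and anchors chromatin loops, and methylation of CpG dinucleotides inside the motif can block it. U2OS cells are known for a silenced CDKN2A gene; neither expression nor methylation was measured in the lists used here.

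The binding sequence was read from the reference genome for each recurrent site, since these letters are what CTCF could bind there. Each run below is the plus strand of GRCh38, 101 bases centred on the median summit, with the best match to a 19-base CTCF motif model in capitals. The model was made from 17820 strong sites outside chromosome 9, and a match means a log2-odds score above 6.55, which 5% of windows 550 bp beside recurrent sites exceed. Sites are named by their distance from the annotated start of the p16INK4a transcript along the plus strand. The +63.4 kb site is at chr9:22038229-22038329, the +78.5 kb site at chr9:22053324-22053424, the +126.0 kb site at chr9:22100794-22100894 and the +144.9 kb site at chr9:22119718-22119818. The fifth run, at chr9:21974851-21974951, is the promoter of p16INK4a around its best match, shown because no list had a peak there.
+63.4 kb site: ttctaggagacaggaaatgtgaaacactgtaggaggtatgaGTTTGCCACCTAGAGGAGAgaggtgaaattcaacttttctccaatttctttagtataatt
+78.5 kb site: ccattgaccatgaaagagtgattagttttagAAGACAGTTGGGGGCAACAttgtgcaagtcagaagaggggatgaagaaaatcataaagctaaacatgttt
+126.0 kb site: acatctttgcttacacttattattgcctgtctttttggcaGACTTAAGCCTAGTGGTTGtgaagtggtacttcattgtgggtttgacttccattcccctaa
+144.9 kb site: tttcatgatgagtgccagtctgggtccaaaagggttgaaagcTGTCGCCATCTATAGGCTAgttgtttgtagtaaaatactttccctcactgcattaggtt
p16INK4a promoter: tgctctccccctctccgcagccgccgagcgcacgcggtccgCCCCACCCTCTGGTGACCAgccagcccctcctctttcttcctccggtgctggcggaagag

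Most CTCF peaks of the locus lay in the noncoding gene. CDKN2B-AS1 (chr9:21994139-22128103) held 135 of the 208 peaks and every one of the 47 locus peaks with a rank within 50000, where rank 1 is the strongest peak of a list. The end of MTAP that reaches into the window held 27 peaks. CDKN2A (chr9:21967752-21995301) held 10 peaks in 7 lists, with folds over background of 2.35 to 3.39. CDKN2B (chr9:22002903-22009305) held 2 peaks, at folds of 2.69 and 2.85. It lies within the span of CDKN2B-AS1, so these 2 peaks are among the 135. CDKN2B-AS1 is much longer than CDKN2A and CDKN2B, and peak numbers were not scaled to gene length. The fold is the height of a peak relative to the background of its own list, as MACS2 gives it, and it was not normalised between lists. The map of peaks along the locus shows 4 columns of peaks to the right of CDKN2B, above a scatter of weak ones.

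**Figure D1:**
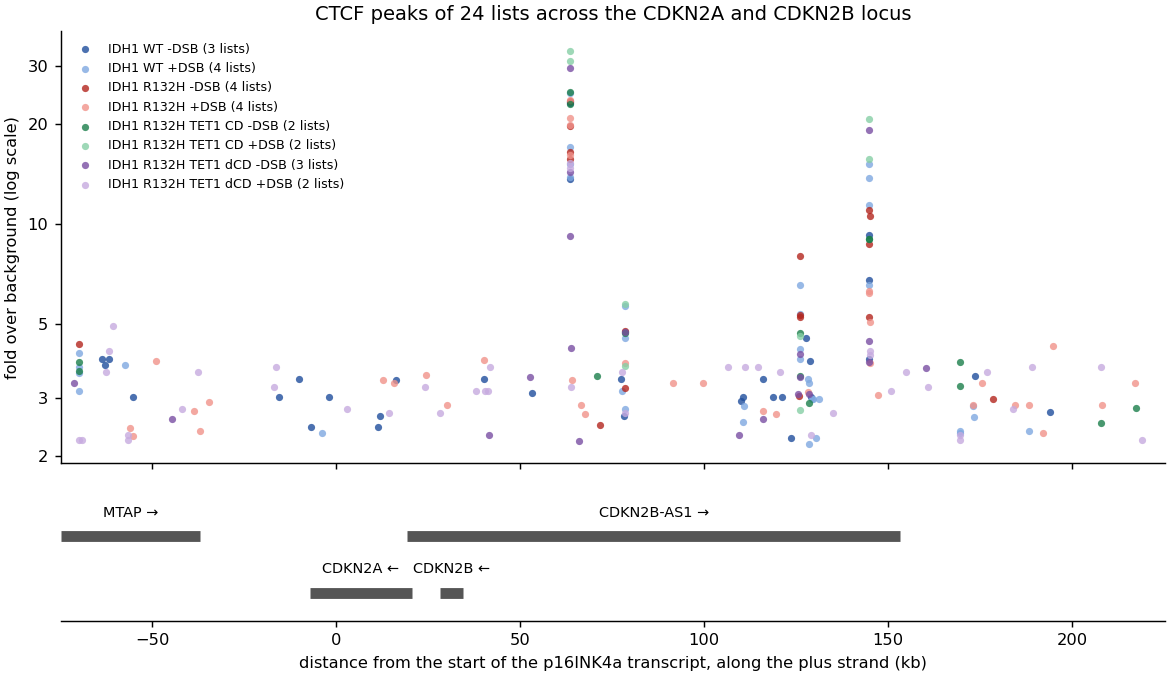
Fold over background (log scale) of all 208 CTCF peaks against distance from the p16INK4a transcript start in kb, coloured by labelled condition, with gene bodies below (arrows give the strand). The columns at 63.4 and 144.9 kb hold a peak from every list, whereas peaks over the shorter CDKN2A and CDKN2B were few and weak.

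Around the starts of the coding genes, 1 peak was found in the 24 lists. It was in IDH1 WT +DSB replicate 1, with its summit at chr9:21971039 within 1 kb of a CDKN2A transcript start, a fold of 2.35 and about 14 reads. No peak lay within 1 kb of a CDKN2B start. For comparison, 8247 of 19962 protein-coding genes, or 41.3%, had a recurrent site within 1 kb of a start.

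The p16INK4a promoter carried a motif match without a peak. In the RefSeq promoter windows of GRCh38.p14, 250 bases before to 50 after a start, the best match at p16INK4a was at chr9:21974892-21974910 on the minus strand and scored 13.6, above the 13.3 of the strongest site of the locus. Matches at the p14ARF promoter (9.31) and the CDKN2B promoter (6.60) were weaker, and the best window of the CDKN2B-AS1 promoter scored 5.89, below the threshold. No peak of any list overlapped these 4 windows. Of the 34789 promoters in the table, 35.4% held a match, and 17.9% of those had a recurrent site within 100 bp of it. A match of 13.3 or more was rarer, at 1384 promoters, and 888 of them (64.2%) had a recurrent site there. The p16INK4a promoter was among the others.

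CpG content differed between the recurrent sites of the locus and the promoter matches without a peak. The 101 bases at the +63.4, +78.5 and +126.0 kb sites held no CpG, and those at the +144.9 kb site held 1, which lies inside the motif match. Among 74734 recurrent sites of the genome the median was 2 CpG with quartiles of 1 and 3, and 23.5% had none. The same length around the p16INK4a and p14ARF matches held 9 CpG each, and around the CDKN2B match 11. The p16INK4a match itself contains no CpG. Over 34789 promoters the 300-base windows held a median of 14 CpG. Those of p16INK4a, p14ARF and CDKN2B held 26, 28 and 25, more than 69.9%, 73.8% and 68.0% of promoters. The CpG content of promoter matches with a recurrent site was not compared, and whether the difference goes with binding was not tested. The plot of CpG content places the recurrent sites of the locus at the CpG-poor end of the genome's sites, where 0 CpG is common.

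**Figure D2:**
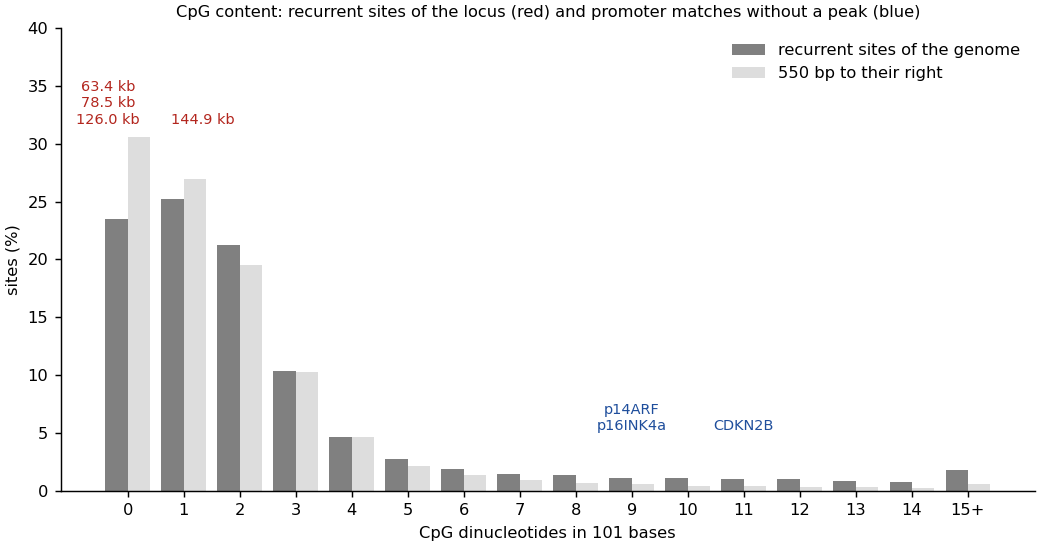
Share of recurrent CTCF sites of the genome (dark bars) and of windows 550 bp to their right (light bars) by number of CpG in 101 bases. Red labels place the 4 recurrent sites of the locus, at 0 or 1 CpG; blue labels place the promoter motif matches that had no peak, at 9 or 11 CpG.

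Motif matches were more frequent at the recurrent sites than at the rare sites of the locus. A match was present at all recurrent sites but the +126.0 kb site: the +63.4 kb site scored 13.3, the +144.9 kb site 13.0 and the +78.5 kb site 9.99. At the +126.0 kb site the best window scored 2.52, which is no match. The matches at +63.4 and +144.9 kb are on the minus strand and the match at +78.5 kb is on the plus strand. Of the 107 sites seen in 1 to 3 lists, 5 held a match (4.67%), close to the 5% of flanking windows. The best of these scored 15.6, the highest at any site of the locus. Among all recurrent sites of the genome 59.0% held a match, as did 94.7% of the 19649 with a median rank within 20000. The 17820 sites from which the model was made are among these 19649, so both shares include sites that shaped the model.

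The +63.4 kb site was the strongest of the locus and was present in every condition. It lies in CDKN2B-AS1, in an exon of 1 of the 18 transcripts annotated over it and in an intron of the others, 7470 bp from the nearest CDKN2B-AS1 start. Its fold ranged from 9.24 to 33.3, and all 24 lists placed it among their 50000 strongest peaks. Ranks were used to compare lists. In IDH1 WT the site ranked 23010, 17904 and 17724 without DSB and 21436, 24465, 27312 and 29587 with DSB. In IDH1 R132H it ranked 25487, 21162, 20680 and 18137 without DSB and 19855, 16717, 18607 and 16927 with DSB. The +DSB lists of the 2 genotypes did not overlap, while the −DSB lists did. The share of all sites with such a split was not counted, so it is not shown to be particular to this site. The 4 lists of each of these +DSB groups stand for 3 samples. Those of IDH1 WT had 70.9 to 84.7 M reads and fragments of 143 to 191 bp. Those of IDH1 R132H had 23.7 to 34.7 M reads and fragments of 121 to 127 bp. The part of depth and fragment length in these ranks was not tested. In TET1 CD it ranked 18106 and 17383 without DSB and 19217 and 18627 with DSB. In TET1 dCD it ranked 26135, 19387 and 18877 without DSB and 19395 and 19745 with DSB. Within −DSB and within +DSB every TET1 CD list ranked the site above every TET1 dCD list, by a small margin with DSB, while the 4 TET1 CD and 5 TET1 dCD lists overlapped when DSB was ignored. By run name this order is lost, since the first 2 of the TET1 dCD −DSB lists (26135 and 19387) then belong to TET1 CD +DSB and overlap with TET1 dCD +DSB. How many of all sites show such an order was not counted, and the TET1 difference at this site did not pass the test given below.

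The +144.9 kb site was also in every list, and weaker. Its rank in whole lists ranged widely, from 23980 to 132887, but whole lists differ in length. Among the 28779 sites found in every list it ranked 22433 to 28689, a narrower span than the 15693 to 24560 of the +63.4 kb site. It lies in CDKN2B-AS1, in an exon of 1 of 16 transcripts there, 800 bp from the start of a short transcript, and is the only recurrent site within 1 kb of a start of the 3 genes. Its ranks were 132887, 39914 and 30721 in IDH1 WT −DSB and 32898, 40099, 30597 and 29587 in IDH1 WT +DSB. In IDH1 R132H it ranked 35995, 47174, 29854 and 29378 without DSB and 43129, 42790, 50273 and 104312 with DSB. In IDH1 R132H every +DSB list except replicates 1 and 2 ranked it below all −DSB lists, and those 2 fell between them. In TET1 CD it ranked 31371 and 32350 without DSB and 27259 and 24654 with DSB. In TET1 dCD it ranked 85974, 59796 and 23980 without DSB and 109671 and 101626 with DSB. By label, all 4 TET1 CD lists ranked it above the TET1 dCD lists other than replicate 3 of −DSB, which ranked it highest of all 24. By run name the lists at 85974 and 59796 belong to TET1 CD +DSB, and this order is lost. The share of all sites with such orders of lists was not counted here either.

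Fragment length moved with the strength of the +144.9 kb site. In the 6 lists with fragments of 170 bp or more, namely IDH1 WT +DSB replicates 1, 3 and 4, TET1 CD +DSB replicates 1 and 2 and TET1 dCD −DSB replicate 3, its fold was 11.4 to 20.8. In the other 18 lists it was 3.82 to 11, without overlap. The same separation held at 4484 of the 28779 sites found in every list (15.6%), and not at the +63.4 kb site, with 15.2 to 33.3 against 9.24 to 25.1. The part of fragment length in the result was not tested.

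**Figure D3:**
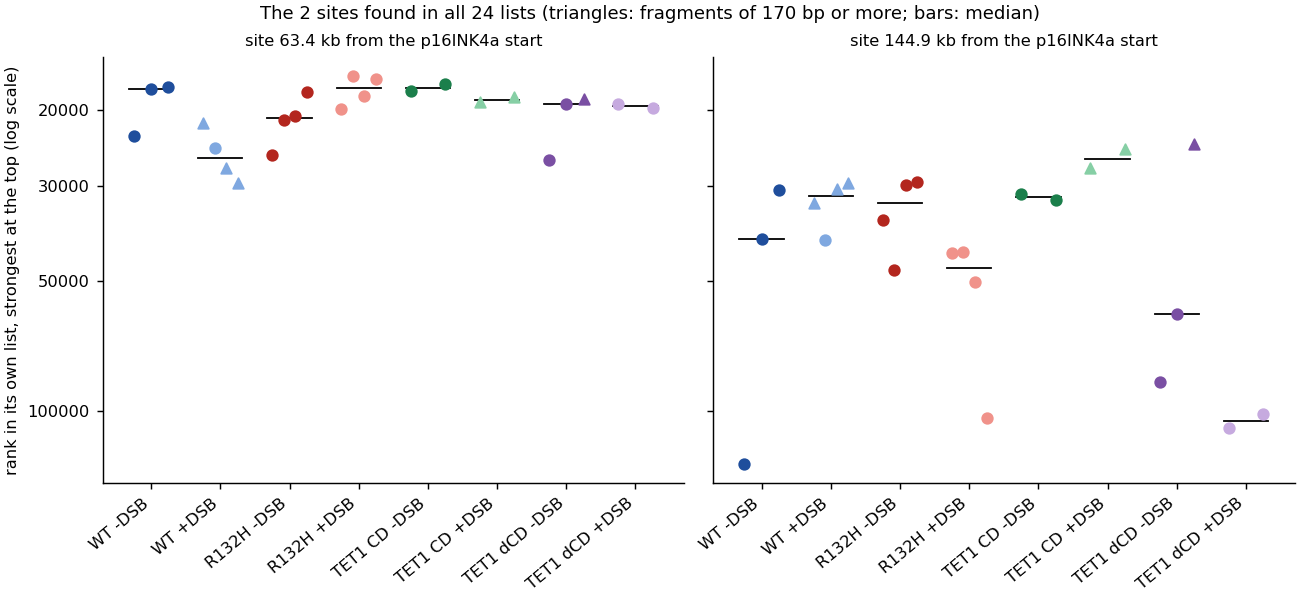
Rank of the 2 sites found in all 24 lists (log scale, strongest at the top) in each list by labelled condition; bars are medians and triangles are lists with fragments of 170 bp or more. The 63.4-kb site stays between 16717 and 29587, the 144.9-kb site ranges from 23980 to 132887.

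The question of whether IDH1 R132H, DSB or TET1 changed CTCF at the locus was tested for these 2 sites, with limma over all 28779 sites found in every list. Strength was −log2 of the rank among those sites, so that a difference of 1 is a 2-fold change in rank, and p-values were Benjamini-Hochberg adjusted over all sites. Between IDH1 R132H and IDH1 WT the difference was 0.13 (SE 0.08, limma adjusted p = 0.729) at +63.4 kb and −0.02 (SE 0.05, limma adjusted p = 0.936) at +144.9 kb. Neither passed, nor did any site of the genome (0% of 28779; 2089 had an unadjusted limma p under 0.05).

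By run name, this comparison changed. The +63.4 kb site was then stronger in IDH1 R132H by 0.25 (SE 0.09, limma adjusted p = 0.0154), and the +144.9 kb site differed by −0.05 (SE 0.05, limma adjusted p = 0.459). The share of all sites called was 58.2%, so 1 of 2 sites at the locus is near the background.

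The DSB changes at +63.4 kb had opposite signs in the 2 genotypes. In IDH1 WT the mean strength was −14.18 ± 0.20 (SD, n = 2) without and −14.43 ± 0.13 (n = 3) with DSB, a change of −0.25 (SE 0.13, limma adjusted p = 0.107). In IDH1 R132H it was −14.30 ± 0.17 (n = 3) without and −14.05 ± 0.12 (n = 3) with DSB, a change of 0.25 (SE 0.11, limma adjusted p = 0.0834). Neither change passed alone, against 45.1% of all sites in IDH1 WT and 36.2% in IDH1 R132H. These shares rest on the labels: by run name 0% of sites passed in IDH1 WT and 0.00347%, or 1 site, in IDH1 R132H.

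The difference between the 2 changes was 0.51 (SE 0.17) and passed, with a limma adjusted p of 0.0146. Of all sites 58.7% passed the same test by label and 0% by run name, so the call at +63.4 kb is neither particular to the locus nor independent of the doubted labels. It was lost without the sample of IDH1 WT −DSB replicates 3 and 4 (0.37, limma adjusted p = 0.108) and by run name (0.26, limma adjusted p = 0.755). At +144.9 kb the DSB change was 0.07 (SE 0.08) in IDH1 WT and −0.02 (SE 0.07) in IDH1 R132H, and their difference of −0.09 (SE 0.11) had a limma adjusted p of 0.490. That site was near the weak end of the 28779 sites, where rank leaves little room to fall.

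TET1 CD and TET1 dCD did not differ past the threshold at either site. TET1 CD minus TET1 dCD was 0.09 (SE 0.11, limma adjusted p = 0.695) at +63.4 kb and 0.09 (SE 0.07, limma adjusted p = 0.537) at +144.9 kb. Across the genome 4.42% of sites passed, and 0% by run name. TET1 CD +DSB is 1 sample, whose spread was taken to be like that of the other groups.

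The +126.0 kb site was present or absent as a whole in every labelled condition except TET1 dCD −DSB. It lies in an intron of CDKN2B-AS1, 11227 bp from the nearest start, and with summits joined within 100 bp it was in 12 lists. Peaks of 2 further lists, IDH1 R132H −DSB replicate 2 at chr9:22100712 and TET1 CD −DSB replicate 1 at chr9:22100758, lay just beyond that distance. Joined within 200 bp, the site was in 14 lists, and the following values use that distance. It was absent from all 3 IDH1 WT −DSB lists and had folds of 3.92, 5.35, 6.54 and 4.19 in IDH1 WT +DSB. In IDH1 R132H the order was the opposite, with folds of 5.26, 3.04, 5.31 and 8.03 without DSB and no peak in the 4 lists with DSB. Among the TET1 lists it had folds of 4.69 and 3.48 in TET1 CD −DSB, 4.59 and 2.75 in TET1 CD +DSB, and 3.46 and 4.06 in TET1 dCD −DSB replicates 1 and 2. TET1 dCD −DSB replicate 3 and both TET1 dCD +DSB lists had no peak there.

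By run name the same lists fall into a simpler order. The site was then in all 8 IDH1 WT lists and none of the 7 IDH1 R132H lists, and in 6 of 6 TET1 CD lists and none of the 3 TET1 dCD lists, in −DSB and +DSB alike. Of 427812 sites in at least 4 lists, 1247 (0.291%) were in every IDH1 WT list and no IDH1 R132H list by run name, and 279 were in every IDH1 R132H list and no IDH1 WT list. The TET1 split as well was met by 15 sites (0.00351%), of which this is 1. Sites in fewer than 8 lists cannot meet either pattern, yet they count among the 427812. Both shares are therefore smaller than among sites in as many lists as this one, for which no share was counted. The site was singled out after its values were seen, so the tests of its presence below are a description.

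Depth and fragment length also differed between the lists with and without the +126.0 kb site. The 14 lists with it had 30.8 to 84.7 M reads and fragments of 139 to 194 bp, and the 10 without it 22.8 to 40.6 M and 118 to 172 bp. The weakest peaks reported in the 10 lists had folds of 2.23 to 2.45, below the 2.75 to 8.03 measured where the site was found. Absence from a list says only that no peak was reported there. Depth, library and condition cannot be told apart here.

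The +78.5 kb site was found in 12 lists and followed the labelled groups only in part. It lies in an intron of CDKN2B-AS1, 2953 bp from the nearest start. It was in all 4 IDH1 WT +DSB lists (folds of 4.55, 2.77, 5.65 and 4.72) and in none of the 3 IDH1 WT −DSB lists. In IDH1 R132H it was in replicates 1 and 4 without DSB (3.20 and 4.76) and in replicate 1 with DSB (3.81). Of the TET1 CD lists it was in −DSB replicate 1 (4.69) and both +DSB lists (3.73 and 5.76), and of the TET1 dCD lists in −DSB replicate 3 (4.74) and +DSB replicate 1 (2.69). By run name it was in 6 of 8 lists named IDH1 WT, 1 of 7 named IDH1 R132H, 3 of 6 TET1 CD and 2 of 3 TET1 dCD lists. The 12 lists with it had 24.4 to 84.7 M reads and fragments of 119 to 194 bp. The 12 without it had 22.8 to 47.2 M and 118 to 150 bp. Depth, library and condition cannot be told apart at this site either, and the share of all sites with such splits was not counted.

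**Figure D4:**
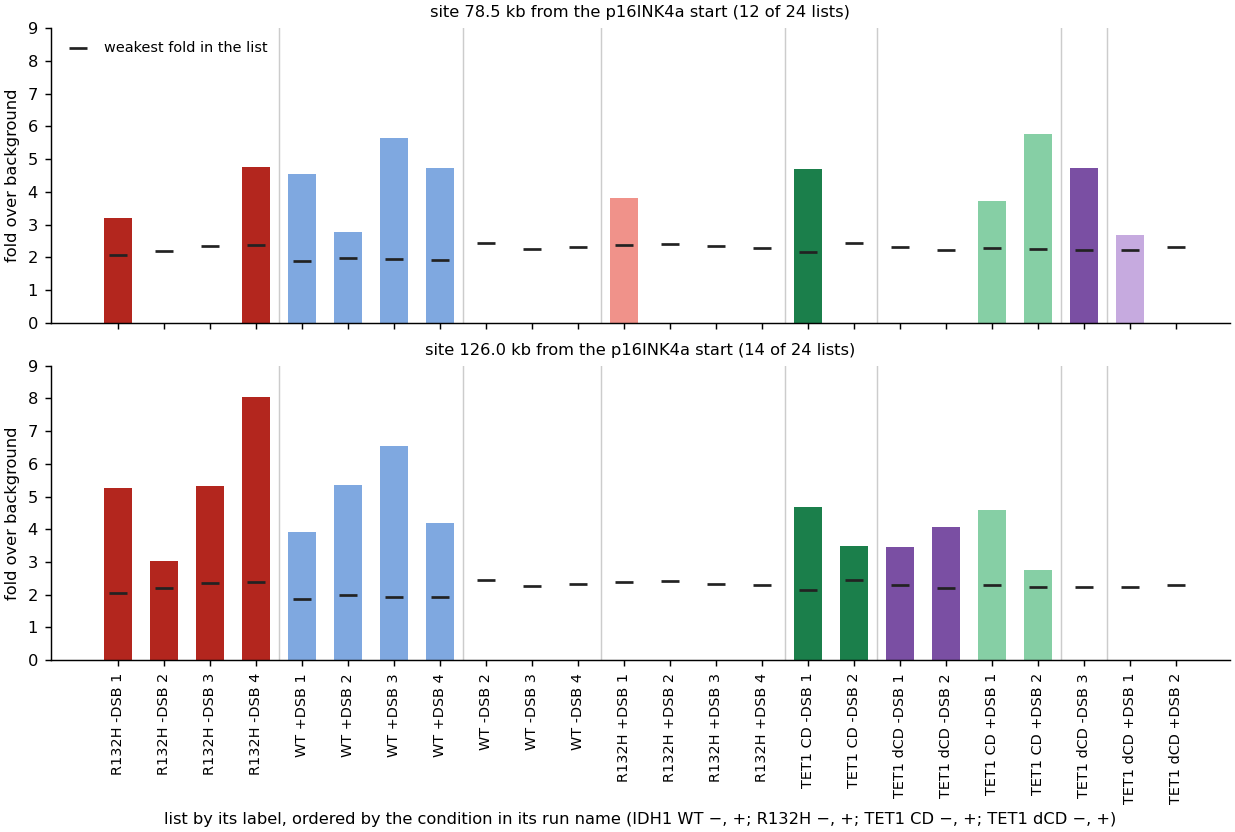
Fold over background in each of the 24 lists at the recurrent sites 78.5 and 126.0 kb from the p16INK4a start, with summits joined within 200 bp; dashes mark the weakest fold in the list, and lists are ordered by run name and coloured by label. At 126.0 kb the 14 bars fill the IDH1 WT and TET1 CD run names and leave the others empty.

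Presence of a peak was compared between IDH1 WT (5 samples) and IDH1 R132H (6 samples) with a two-sided Fisher's exact test at 328826 sites in at least 4 lists. No locus site passed, and no site of the genome did (0%). With 5 and 6 samples the smallest exact p possible is 0.00216. A site could therefore pass only if very many other sites split completely too. For this reason the test cannot decide whether presence differed at a single site. At the +126.0 kb site 3 of 5 samples of IDH1 WT and 2 of 6 of IDH1 R132H had a summit (exact p = 0.567, adjusted p = 1), and at the +78.5 kb site 3 of 5 and 3 of 6 did. By run name the +126.0 kb site was in 5 of 6 samples named IDH1 WT and 0 of 5 named IDH1 R132H (exact p = 0.0152, adjusted p = 0.321). With summits joined within 200 bp as well, an alternative chosen after seeing the data, it was in 6 of 6 and 0 of 5 (exact p = 0.00216, adjusted p = 0.222). No locus site had an unadjusted p under 0.05 by label.

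The number of peaks in the window differed widely between lists. It ranged from 3 in IDH1 R132H −DSB replicate 3 to 22 in TET1 dCD +DSB replicate 1, the longest list. As a share, the mean was 3.26 ± 0.248 (SD, n = 2) locus peaks per 100000 list peaks in IDH1 WT −DSB and 3.67 ± 1.22 (n = 3) in IDH1 WT +DSB. It was 1.86 ± 0.298 (n = 3) in IDH1 R132H −DSB and 3.05 ± 1.34 (n = 3) in IDH1 R132H +DSB. TET1 CD had 3.13 ± 0.879 (n = 2) without DSB and 3.53 in its 1 sample with DSB, and TET1 dCD 2.72 ± 0.14 (n = 2) and 4.42 ± 0.0673 (n = 2).

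None of the 5 comparisons of this share passed a two-sided exact permutation test. IDH1 R132H minus IDH1 WT was −1.01 (exact permutation p = 0.10, adjusted over the 5 comparisons 0.50), and leaving out IDH1 R132H +DSB replicate 1 gave −1.40 (exact permutation p = 0.04). The DSB change was 0.415 in IDH1 WT (exact permutation p = 0.70) and 1.19 in IDH1 R132H (exact permutation p = 0.20), where the smallest p possible is 0.10. The difference between the changes was 0.776 (exact permutation p = 0.53), and TET1 CD minus TET1 dCD was −0.241 (exact permutation p = 0.556, smallest possible 0.0556). By run name the genotype difference turned to 0.388 (exact permutation p = 0.53).

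**Figure D5:**
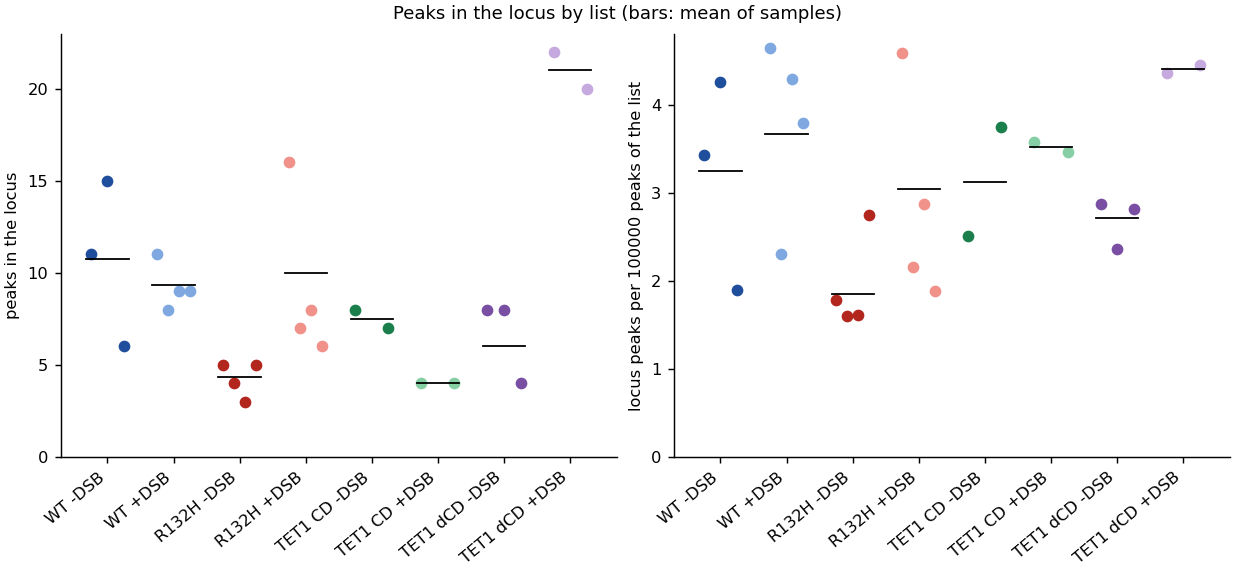
Number of peaks in the locus (left) and locus peaks per 100000 peaks of the list (right) in each list by labelled condition; bars are means of samples. The TET1 dCD +DSB lists had the most peaks, 20 and 22, and the IDH1 R132H −DSB lists 3 to 5.

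The locus was sparse compared with its chromosome. It averaged 8.67 peaks per list, against a median of 16.2 over the 413 windows of the same length on chromosome 9 that held any peak, and 65 of them had fewer. Of its peaks, 47 had a rank within 50000, 41 of these at the 2 sites found everywhere, and 15 had a rank within 20000, all at +63.4 kb. No AsiSI recognition sequence lies in the window on GRCh38. Chromosome 9 has 55, and the nearest is at chr9:29212801-29212808, 7.01 Mb from the edge of the window.

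CTCF sites were also counted at the starts of genes that act with the locus. Of 16 genes of the CDK and RB pathway, 10 had a recurrent site within 1 kb of a start, and 5 of these sites were in all 24 lists. Over all protein-coding genes the share was 41.3%. The 5 sites in all 24 lists belong to CDK4 and CDK6, the kinases that p16INK4a and p15INK4b inhibit, cyclin D1 (CCND1), the related inhibitor CDKN2C, and MDM2. The site at CCND1 had a median rank of 2886 and that at CDK4 of 9169, while the +144.9 kb site, the only one at a CDKN2B-AS1 start, had 37954. RB1, RBL2, E2F3, CDKN1A, CDKN1B and CDKN2D had none. Of 7 Polycomb genes, BMI1, CBX7 and RNF2 had one, in 14 to 17 lists, which is near that share.

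None of the 5 sites was called between IDH1 R132H and IDH1 WT by label, where the median difference was −0.11, against −0.01 over all sites. With DSB in IDH1 WT, 3 passed, against 45.1% of all sites, and were stronger: CDK4 by 1.06 (limma adjusted p = 0.0016), CDK6 by 2.04 (limma adjusted p = 2.82e-05) and CDKN2C by 0.34 (limma adjusted p = 0.00318). In IDH1 R132H, where 36.2% of all sites passed, these 3 were weaker with DSB, by −1.0 (limma adjusted p = 0.00148), −1.20 (limma adjusted p = 0.00141) and −0.25 (limma adjusted p = 0.0141). By run name these DSB calls were all lost: the changes in IDH1 WT were 0.12 at CDK4, 0.70 at CDK6 and 0.13 at CDKN2C, with limma adjusted p of 0.852, 0.246 and 0.455, and those in IDH1 R132H were −0.06, 0.14 and −0.04, each with a limma adjusted p of 1. By run name, CDK4 (−1.03), CDK6 (−1.62) and CDKN2C (−0.29) were weaker in IDH1 R132H than in IDH1 WT, with limma adjusted p of 6.34e-05, 1.74e-06 and 0.000245, in a comparison that 58.2% of all sites passed. The values at the +63.4 kb site had the opposite sign to these 3, at −0.25, 0.25 and 0.25, of which only the last, by run name, passed. Called sites of the genome went both ways. With DSB, 6286 were stronger and 6698 weaker in IDH1 WT, and 5244 and 5179 in IDH1 R132H. By run name, 8898 were stronger and 7846 weaker in IDH1 R132H than in IDH1 WT.

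Beyond the window, DMRTA1, the next gene on the right, had a site in all 24 lists (median rank 29630), which was stronger with DSB in IDH1 WT by 0.30 (limma adjusted p = 0.0241). The DSB change in IDH1 R132H was −0.20 (limma adjusted p = 0.0945), and the changes differed by −0.50 (limma adjusted p = 0.00453). Of all sites, 45.1% passed for DSB in IDH1 WT and 58.7% for the difference between the changes. By run name both calls were lost. The DSB change in IDH1 WT was then 0.15 (limma adjusted p = 0.508), and the changes differed by −0.20 (limma adjusted p = 0.764). The site was weaker in IDH1 R132H than in IDH1 WT by run name, by −0.25 (limma adjusted p = 0.00535), where 58.2% of all sites passed. MTAP on the left, an enzyme of methionine salvage, and the interferon genes IFNA1, IFNB1 and IFNE had no recurrent site within 1 kb of a start.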

How the data were processed

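CTCF ChIP-seq peaks of 24 lists were analysed. Per the labels and the methods, the authors trimmed reads (cutadapt 1.18), aligned them to GRCh38 with Bowtie2 (2.3.4.1 in the submitters' notes; the methods name another version) and called peaks in each sample with MACS2 against input. The deposited lists give a score, a fold over background, and −log10 of the p-value and of the q-value for each peak; the fold is a ratio within a list. Depth was estimated from the background value and the fragment length, assuming a genome of 2.7 Gb; this number limits the precision of each value.

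Summits were joined across lists within 100 bp, from the strongest rank down. Strength was tested with limma 3.58.1 (R 4.3.3), 8 groups, trended eBayes; shares with exact permutation tests and presence with Fisher's exact test (scipy 1.17.1). The limma step and the permutation tests were tested on simulated data. Annotation was GENCODE; promoters were from RefSeq. The labels do not say that replicates were separate cultures, so p-values measure only the spread between these samples, which may be technical. Sites named were recurrent sites of the window, sites within 1 kb of a start of the 3 genes and sites with an adjusted p under 0.05; the +78.5 and +126.0 kb sites were named as 2 of only 4 recurrent sites. Members and lists were chosen with earlier results of these data known. Alternatives were other peak cut-offs, groups by run name, every list as a sample, a replicate block, other joining distances and leaving out each sample. Input and 4C samples were not analysed here. One gene of the pathway list is not reported here.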

Additional observations from a re-analysis of the deposited data

Results flagged for a closer look

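At the +63.4 kb site (chr9:22038279, CDKN2B-AS1) the DSB change in strength differed between the genotypes by 0.51, with a limma adjusted p of 0.0146, a test that 58.7% of all sites passed by label and 0% by run name. The site was not called by run name.

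The +126.0 kb site was in 14 lists with summits joined within 200 bp. By label, a peak was reported in every IDH1 WT +DSB list and no IDH1 WT −DSB list. In IDH1 R132H, every −DSB list and no +DSB list had one. Across the genome, 1247 sites split these IDH1 WT and IDH1 R132H lists in the same way, out of 427812 in at least 4 lists. Depth, library and condition cannot be told apart in this difference. This difference was not tested. By run name it becomes a difference between genotypes and between TET1 CD and TET1 dCD. Groups were too small for a check of single outlying samples.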

How the results depend on the processing

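Of 323 recomputed values, 292 kept their direction and their side of the threshold. By run name, the locus share turned to 0.388 for genotype, −0.21 for DSB in IDH1 R132H and −2.03 for the difference between the DSB changes. The number of locus sites called went from 0 to 1 for genotype and from 1 to 0 for the difference between DSB changes, and the TET1 difference at +144.9 kb turned to −0.07. As a plain number of locus peaks, DSB in IDH1 WT turned to −1.42. With the 50000 strongest peaks the shares were −1 for DSB in IDH1 R132H, −3 for the difference between the changes (exact permutation p = 0.045) and 1.5 for TET1. With the 20000 strongest they were 1.67 for genotype, −2.5 for DSB in IDH1 WT, 6.67 for the difference between the changes (exact permutation p = 0.035) and 0.625 for TET1. With −log10 q of at least 10 they were −1.23, −2.33 and 2 for DSB in IDH1 R132H, the difference and TET1. These cut-offs leave 0 to 4 locus peaks a list, and 1 peak tied at the limit of 50000 was left out of that count. With both TET1 CD −DSB lists as 1 sample, chosen after seeing the data, no call changed.

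Counting every list as its own sample, DSB in IDH1 WT called 1 locus site instead of 0, and so did the fit with the replicate block (−0.30 at +63.4 kb, limma adjusted p = 0.0178). Replicate numbers did not pair the lists, since 23 of 65 same-numbered pairs had a correlation above 0.1 (median 0.02). Leaving out 1 sample at a time, the share differed by −1.40 to −0.767 for genotype, −0.0771 to 1.10 for DSB in IDH1 WT (−0.0771 without IDH1 WT +DSB replicate 1), 0.42 to 1.63 for DSB in IDH1 R132H, 0.00416 to 1.27 for the difference between the changes and −0.552 to 0.0696 for TET1 (0.0696 without TET1 CD −DSB replicate 1). Sites called ranged from 0 to 1 for DSB in IDH1 R132H (1 without its −DSB replicates 3 and 4, where +144.9 kb also turned to 0.02) and from 0 to 1 for the difference (0 without IDH1 WT −DSB replicates 3 and 4). Leaving out the sole TET1 CD +DSB sample leaves no TET1 CD +DSB group and was not run. The cause of these changes was not tested.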

Other observations

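Outside CDKN2B-AS1 the best-supported site was at chr9:21904976, 69.9 kb to the left of the p16INK4a start, in an intron of MTAP. It was in 8 lists, among them all 4 IDH1 WT +DSB lists (folds of 3.15 to 4.08). The others were IDH1 R132H −DSB replicate 1, both TET1 CD −DSB lists and TET1 dCD +DSB replicate 1. In the last, its fold of 2.24 (about 4 reads) equals the weakest fold of that list. The site had a motif match scoring 11.3 and 2 CpG in 101 bases. By run name 4 of 6 IDH1 WT samples and 0 of 5 IDH1 R132H samples had it (exact p = 0.0606, adjusted p = 0.483). Lists named IDH1 WT had 44.3 to 84.7 M reads and lists named IDH1 R132H 22.8 to 35.1 M. Depth, library and condition cannot be told apart here, and the share of all sites with such a split was not counted.

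A further site in 5 lists, at chr9:22144328 outside any gene, had no match. The 107 sites in 1 to 3 lists had median folds of up to 4.93, and 58 of them held no CpG.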
